A study of Mus musculus with 9 samples.

Results

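The insulin-like growth factor (Igf) binding proteins Igfbp2 to Igfbp7 were examined in satellite cells, the resident stem cells of skeletal muscle, from wild type mice (WT) and from mice deficient for Bmi1 (KO). Every non-control probe whose gene name in the scanner files was one of these 6 genes was taken, which gave 7 of 55681 probes: 2 for Igfbp2 and 1 for each other gene. All 7 were well above background on at least 3 of the 9 arrays and were therefore among the 42997 probes tested. No member passed the test for a difference between KO and WT. In direction, 6 probes of 5 genes were higher in KO, by 1.42-fold for Igfbp5 to 1.98-fold for Igfbp7 among the probes above background on every array, and the Igfbp4 probe was lower in KO, with WT 1.36-fold above KO.

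All mice were of the FVB strain, 2 months old and labelled male. WT is described as wild type and KO as deficient for Bmi1, a subunit of Polycomb repressive complex 1. The labels give neither the Bmi1 allele, nor whether Bmi1 was lacking in every tissue or in muscle stem cells alone, nor how many animals gave a sample. The cells were sorted by flow cytometry for integrin alpha-7 and CD34 and against CD31, CD45, CD11b and Sca1. Their RNA was amplified, labelled with Cy3 and hybridised to arrays of 1 colour, 3 for WT and 6 for KO.

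The 6 KO arrays are labelled as replicates 1 to 6, but their descriptions carry only 3 first numbers. Arrays that shared this number correlated at 0.9928 to 0.9949 over probes, and all other pairs of arrays at 0.9735 to 0.9824. Each such pair of arrays was averaged and counted as 1 sample, so 3 WT samples were compared with 3 KO samples. On 1 array, KO replicate 1, the genotype field reads wild type while the title, source and description read KO, and the array correlated at 0.9941 with KO replicate 4, its partner. With KO replicates 4 to 6 alone, which leaves that array out, the differences between KO and WT were 1.06 for Igfbp7, 0.82 for Igfbp6, 0.51 for Igfbp5, 0.71 for Igfbp3, -0.49 for Igfbp4, and 0.53 and 1.43 for the Igfbp2 probes, on the log2 scale. The targeted gene did not separate the groups: Bmi1 read 0.40, 0.61 and 0.48 in WT and 0.58, 0.71 and 0.48 in KO (difference 0.10 ± 0.13 SE, limma adjusted p = 0.864). The labels do not say which part of Bmi1 was deleted, so the level of its probes does not check them. Cdkn2a, which Polycomb complexes keep silent, was higher on all 6 KO arrays (-0.95 to -0.51) than on the 3 WT arrays (-4.28 to -3.64), a difference of 3.28 ± 0.22 (SE, limma adjusted p = 0.0207), and KO replicate 1 read -0.88. Between 71.9% and 75.8% of non-control spots were well above background on each array, and none was saturated.

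Igf1 and Igf2 are secreted growth factors that act through the receptor Igf1r, and Igf2 is also taken up and degraded through Igf2r. Igf binding proteins bind these ligands outside the cell, lengthen their life and either keep them from the receptor or bring them to it, and proteases that cleave a binding protein release its ligand. In muscle, Igf signalling is known for its roles in growth of fibres and in proliferation and differentiation of myoblasts. Several of the binding proteins are also secreted by senescent cells in culture.

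Each array value was the log2 of the background-subtracted signal minus that array's 75th percentile, so that 0 marks the 75th percentile and 1 unit is a 2-fold step. Levels of different members were not ranked, because probes differ in how strongly they bind. The sequences below identify probes, and that of the first Igfbp2 probe also shows which part of the transcript its value reports. The first Igfbp2 probe, shown whole with its stop codon in capitals, covers 19 codons and the stop when read from its first base, so it reports the coding end of the message. It lies at chr1:72898677-72898736 on the plus strand in mm9, the build of the array design.

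Igfbp2 A_55_P2056729: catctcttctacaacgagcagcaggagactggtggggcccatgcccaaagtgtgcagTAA

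The second Igfbp2 probe starts at position 1082 of the transcript, after the first one, which starts at position 946. For it and the probes of Igfbp3 to Igfbp6 the first 30 of 60 bases are given, with nothing marked in capitals, to identify it.

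Igfbp2 A_66_P135391: aggagttcccagttttgacacatgtattta
Igfbp3 A_52_P253179: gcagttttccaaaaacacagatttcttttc
Igfbp4 A_52_P257502: gagaagagaaacctcattcttggagtgaga
Igfbp5 A_52_P281702: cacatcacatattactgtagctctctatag
Igfbp6 A_66_P139546: ctgtcacccttgggcctttacacagctagt

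In mm9 the second Igfbp2 probe lies at chr1:72898813-72898872 on the plus strand and the Igfbp5 probe at chr1:72904829-72904888 on the minus strand, with 5957 bases between the genes' nearest probes. The 3′ ends of Igfbp2 and Igfbp5 thus face each other. The Igfbp3 probe, at chr11:7106594-7106653 on the minus strand, is 4093 bases from the probe of Igfbp1, which was not well above background on enough arrays to be tested. The Igfbp4 probe is on the same chromosome but far away, at chr11:98913334-98913393 on the plus strand. The Igfbp6 probe lies at chr15:101979852-101979911 on the plus strand. Among these probes GC content ran from 36.7% in the Igfbp3 probe to 55.0% in the first Igfbp2 probe.

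Igfbp7 binds Igfs with low affinity compared with the other members and also binds insulin and matrix. Its probe read 1.87, 2.30 and 2.46 in the 3 WT samples and 3.32, 3.08 and 3.20 in the 3 KO samples. The groups did not overlap, and 0.62 separated the highest WT from the lowest KO sample. WT averaged 2.21 ± 0.30 and KO 3.20 ± 0.12 (SD, n = 3 each). The difference was 0.99 ± 0.19 (SE), a level in KO 1.98-fold that of WT (95% interval 1.44 to 2.73). It did not pass the test over all probes (limma, unadjusted p = 0.00196, adjusted p = 0.155). An exact permutation test gave 0.1, the smallest two-sided p that 20 splits of 3 against 3 samples allow. Before normalisation, the signal ran from 4329 to 6721 on the WT arrays and from 9226 to 12845 on the KO arrays, so the probe was bright on every array. Within slides the difference was 0.95 on slide 1 and 0.98 on slide 2.

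Igfbp6 prefers Igf2 over Igf1. It read 4.15, 4.01 and 4.22 in WT and 5.07, 4.71 and 5.0 in KO. Every KO sample lay at least 0.48 above every WT sample. WT averaged 4.13 ± 0.11 and KO 4.93 ± 0.19 (SD, n = 3 each). KO was 1.74-fold above WT (95% interval 1.35 to 2.25), a difference of 0.80 ± 0.15 (SE), with a limma unadjusted p of 0.00189 and an adjusted p of 0.153. The difference was 0.75 on slide 1 and 0.91 on slide 2. The call depended on how repeat arrays were counted. With 9 arrays as separate samples the limma adjusted p was 0.0102, in a fit that called 3.81% of all probes. With a random effect for the sample the limma adjusted p was 0.0304, in a fit that called 1.42%. When slide was added to that fit as a fixed block, the limma adjusted p was 0.0513. Across the 22 alternatives the limma adjusted p ran from 0.0102 to 0.385.

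Igfbp5 binds to matrix and cell surfaces and is known to be induced when cultured myoblasts differentiate. It read 4.56, 4.76 and 4.19 in WT and 5.15, 5.04 and 4.84 in KO. The groups were separated by only 0.08. The means were 4.51 ± 0.29 and 5.01 ± 0.16 (SD, n = 3 each), a difference of 0.51 ± 0.19 (SE) or 1.42-fold, with a limma unadjusted p of 0.037 and an adjusted p of 0.426. It was smaller on slide 2 (0.28) than on slide 1 (0.60), where slide 2 holds 1 WT array.

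Igfbp2, which can also bind integrins through an RGD sequence, was the one member with several probes. The probe over the coding end read -2.44, -2.49 and -2.91 in WT and -2.38, -1.89 and -1.73 in KO. Its groups were only 0.06 apart, because KO sample 1 lay close to the highest WT sample. The difference was 0.62 ± 0.23 (SE), or 1.53-fold (limma unadjusted p = 0.0359, adjusted p = 0.422). The probe further 3′ read -4.35, -4.79 and -5.72 in WT and -3.46, -3.36 and -3.58 in KO. Its KO samples were all higher, by at least 0.77. The difference was 1.49 ± 0.35 (SE), with a limma unadjusted p of 0.0055 and an adjusted p of 0.226. This size is uncertain, since the probe was well above background on 2 of 3 WT arrays, with WT signals of 19.9 to 57.8 against 97.3 to 137 in KO. With a normexp background correction the difference was 0.62, beside 0.46 for the coding-end probe. In the authors' deposited table it was 0.64, beside 0.42 for the coding-end probe. Both Igfbp2 probes were higher in KO under each alternative that gave a value.

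Igfbp3 carries most Igf in blood, in a complex with the acid-labile subunit. It read -1.29, -0.22 and -1.54 in WT and -0.76, 0.06 and -0.44 in KO. The groups overlapped: WT sample 2 lay above KO samples 1 and 3. WT averaged -1.02 ± 0.70 and KO -0.38 ± 0.41 (SD, n = 3 each). The 95% interval of the difference of 0.64 ran from -0.34 to 1.62 (limma adjusted p = 0.660, exact permutation p = 0.3). The value rested on single samples: it was 1.04 without WT replicate 2 and 0.37 without WT replicate 3. On slide 1 it was 0.85 and on slide 2 0.025. A difference of Igfbp3 could thus be neither shown nor bounded closely.

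Igfbp4, which holds Igf back from its receptor until the protease Pappa cleaves it, was the one member lower in KO. It read 2.52, 2.76 and 2.47 in WT and 2.13, 2.19 and 2.10 in KO. The groups did not overlap, and 0.27 lay between the lowest WT and the highest KO sample. The means were 2.58 ± 0.16 and 2.14 ± 0.05 (SD, n = 3 each), and WT was 1.36-fold above KO (95% interval 1.08 to 1.71). The difference of -0.44 ± 0.13 (SE) had a limma unadjusted p of 0.017 and an adjusted p of 0.326. It was -0.35 on slide 1 and -0.63 on slide 2.

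**Figure D1:**
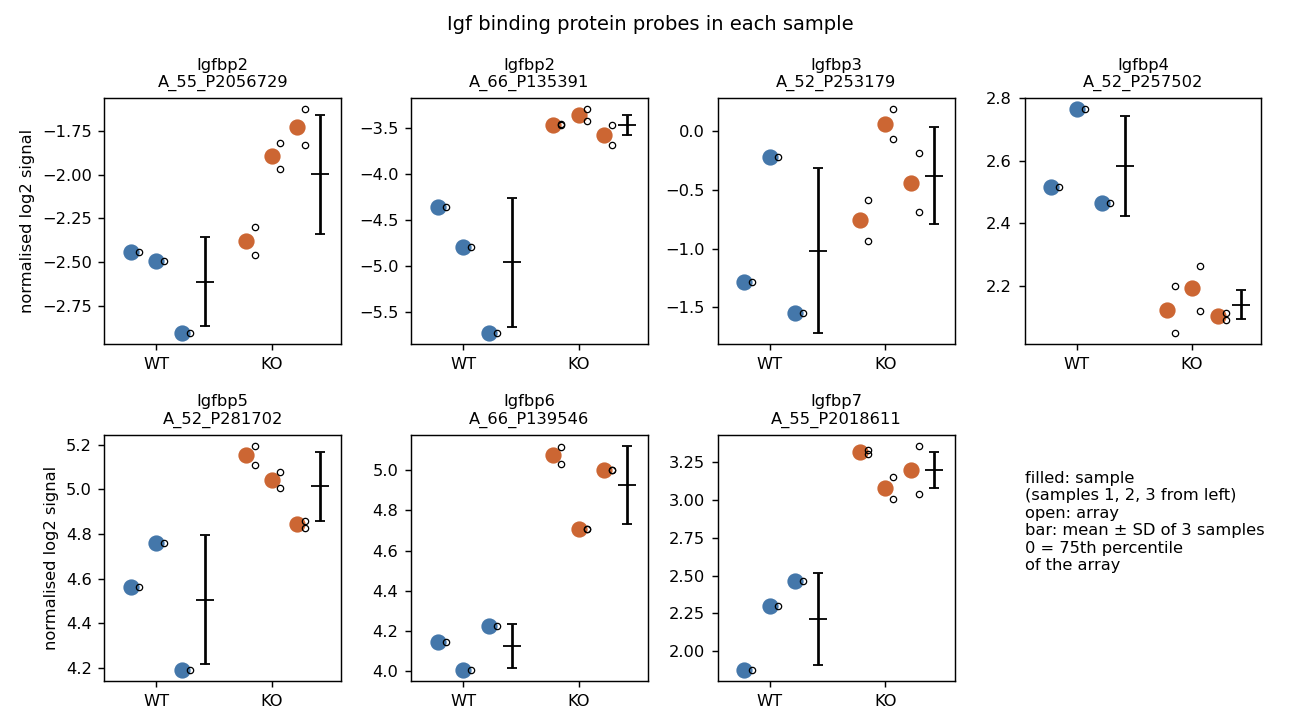
Normalised log2 signal (vertical axis, its own scale in each panel, 0 at the array's 75th percentile) of the 7 Igf binding protein probes in WT and KO. Filled points are the 3 samples of a group in order of number, open points single arrays, and bars the mean ± SD of 3 samples. Filled WT and KO points do not overlap in 6 panels, with Igfbp4 lower in KO, and overlap in the Igfbp3 panel. Among open points, 1 KO array (-2.46) also lies below the highest WT array (-2.44) for the Igfbp2 coding-end probe.

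The 2 arrays of a KO sample differed by 0.001 to 0.50 for these probes, with the widest gap for Igfbp3. Of the 7 probes 0 had a limma adjusted p under 0.05, beside 21 of all 42997 probes or 0.0488% (0.0465% higher and 0.00233% lower in KO). With a normexp background limma called 0.649% of all probes and again none of the 7. At an unadjusted p under 0.05, limma gave 6 of the 7, beside 10.7% of all probes: 5 were higher in KO (6.49% of all probes) and 1 lower (4.18%). The groups did not overlap for 6 of the 7, beside 16.5% of all probes. This count was 4 with arrays scaled to their median, where Igfbp5 and the coding-end probe of Igfbp2 overlapped too, and 5 with single arrays or with KO replicates 4 to 6, where that Igfbp2 probe did. By direction, KO lay wholly above WT for 5 member probes of 4 genes (8.58% of all probes) and wholly below WT for 1 (7.93%). The median difference of the 7 probes was 0.64, and that of all probes tested -0.01. The 6 genes were proposed with earlier results of these data known, so these counts describe them and test nothing. In RNA of sorted cells, fewer cells of a type and less RNA per cell cannot be told apart.

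**Figure D2:**
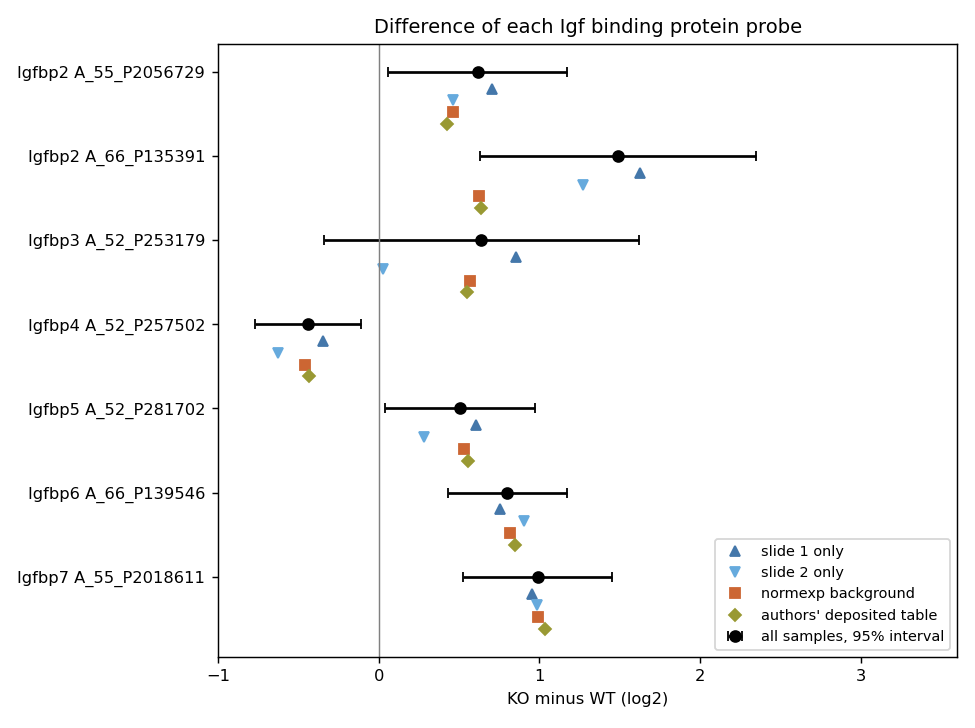
Difference between KO and WT (horizontal axis, log2) of each probe: black points use all samples with the 95% interval from limma, triangles the arrays of 1 slide, squares a normexp background correction and diamonds the authors' deposited table. All values for Igfbp6 and Igfbp7 lie between 0.75 and 1.03, the second Igfbp2 probe moves from 1.49 to 0.62 with the background correction, and Igfbp3 from 0.85 on slide 1 to 0.025 on slide 2.

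Summed markers of 4 other groups of muscle cells were also higher in the KO samples. Summed over the list, in multiples of each array's 75th percentile, the 13 measured markers of fibro-adipogenic cells and fibroblasts reached 111 to 124 in WT and 164 to 182 in KO. In 9 of these 13 genes KO lay wholly above WT, among them Col1a1, a chain of type I collagen (1.62 in WT, 3.53 in KO, limma adjusted p = 0.0988), and Dcn, the matrix proteoglycan decorin (3.54 and 4.47, adjusted p = 0.158). Pdgfra, a defining receptor of these cells, was well above background on 1 of 3 WT arrays and on 6 of 6 KO arrays. The 8 tendon and perineurial markers summed to 10.5 to 11.9 in WT and 18.0 to 19.8 in KO, with 4 wholly above. These were Thbs4, Slc2a1, Cldn1 and Itgb4. The groups overlapped for Scx (difference -0.046) and Mkx (0.26). They also overlapped for Tnmd (mean -4.79 in WT, -2.79 in KO) and Fmod (-3.95 and -0.95). The 9 measured Schwann and glial markers summed to 55.7 to 64.7 and 70.3 to 73.6, with 4 wholly above. The 14 endothelial markers summed to 4.51 to 5.75 and 6.01 to 9.11, with 3 wholly above, and no WT array had Robo4 well above background. For comparison, KO lay wholly above WT in 10.3% of all 16784 genes with a symbol. With arrays scaled to their median instead, the endothelial sums (32.1 to 38.6 in WT, 37.2 to 58.4 in KO) and the Schwann sums (377 to 461 and 434 to 507, in multiples of the median) overlapped, and those of the fibro-adipogenic and tendon lists did not.

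The sums of the 10 mural cell markers (164 to 166 in WT, 160 to 172 in KO), the 9 measured blood cell markers (124 to 143 and 120 to 134) and the 11 measured muscle differentiation markers (22.2 to 36.4 and 28.7 to 36.4) overlapped between the groups. The mural sum hides its genes: 9 of 10 were higher in KO, with a median of 0.48, and KO lay wholly above WT in 4, among them the receptor Pdgfrb (-2.31 in WT, -0.97 in KO, limma adjusted p = 0.0568). Mcam, which differed by -0.10, gave 62.8% of that sum. Sums of different probes weight bright probes most, and a few genes set some of them: Itgam, which encodes the CD11b that the sort selected against, gave 96.0% of the blood list, and Lyz2 was not well above background on any array. Among the lists with higher sums in KO, Tek (difference 0.17) gave 55.1% of the endothelial sum and Col3a1 (0.03) 51.1% of the fibro-adipogenic sum. Pmp22 (0.11) gave 48.0% of the Schwann sum, and Thbs4 (1.34) 24.3% of the tendon and perineurial sum. All 15 satellite cell markers were well above background on every array, including Pax7 (2.80 in WT and 2.82 in KO), and their sums overlapped (157 to 178 and 161 to 165). This sum hides genes too, with a median of 0.11. KO lay wholly above WT in 4 of the 15, among them Sdc4 (0.75), beside 10.3% of all genes with a symbol. It lay wholly below in 3, among them Chrdl2 (-0.33), beside 8.54%. Scaled to the array median, the satellite sums (1121 to 1201 in WT, 1018 to 1116 in KO) and the mural sums (1107 to 1185 and 1062 to 1105) were lower in KO without overlap, while 9 of 10 mural genes stayed higher (median 0.39) and 8 of 15 satellite genes were higher (median 0.03). No gene of these 8 lists passed the limma test over all probes. The sort selected against Sca1 and CD31, which fibro-adipogenic and endothelial cells carry. Ly6a, the gene of Sca1, read -5.35, -4.79 and -5.99 in WT and -1.61, -5.74 and -3.32 in KO, and Pecam1, the gene of CD31, read -4.36, -3.24 and -6.60 and then -1.78, -3.25 and -3.25. Both genes overlapped between the groups and were well above background on 2 of 3 WT and 6 of 6 KO arrays. Ptprc, the gene of CD45, differed by -0.02. The part of these marker differences in the Igfbp results was not tested.

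**Figure D3:**
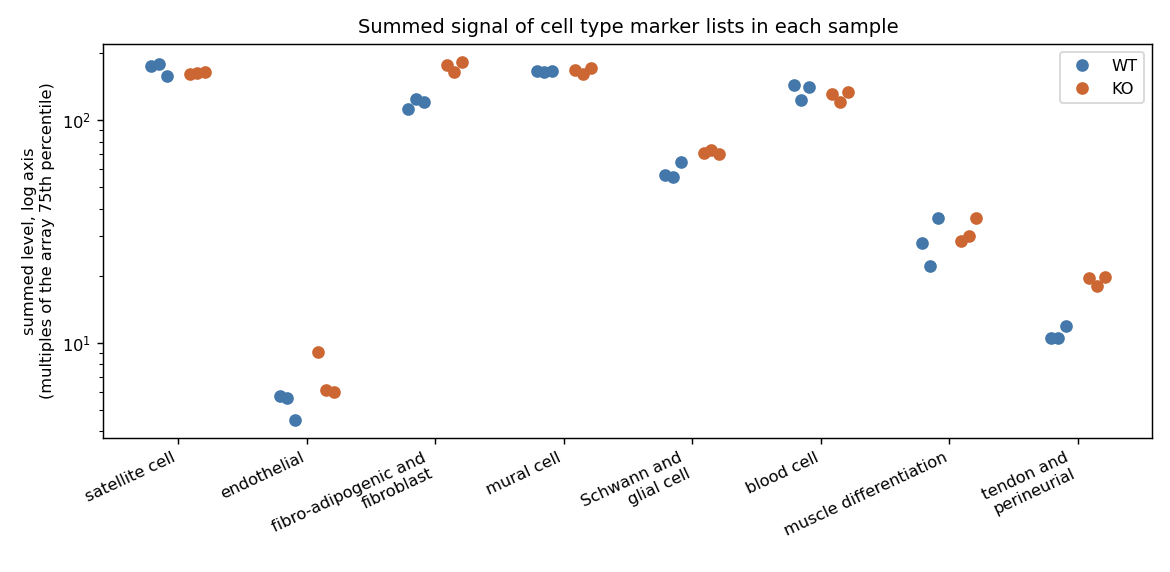
Summed signal of 8 lists of cell type markers (vertical log axis, multiples of the array's 75th percentile, brightest probe of each gene) in the 3 WT and 3 KO samples, 1 point a sample. KO points lie above all WT points for the fibro-adipogenic, tendon and perineurial, Schwann and endothelial lists, and overlap with WT for the others. When arrays are scaled to their median, the Schwann and endothelial lists overlap too, and the sums of the satellite and mural lists, the latter mostly Mcam, lie lower in KO.

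The other genes of the system were taken from lists by role, with the brightest probe of each gene. Among all 16784 genes with a symbol, limma called 10 (0.0596%) and gave an unadjusted p under 0.05 for 11.8%. Of the genes under 0.05, 1311 were higher in KO and 675 lower. Whatever the p, 8087 of the 16784 genes were higher in KO and 8697 lower. KO lay wholly above WT in 10.3% and wholly below in 8.54%. In none of the lists below did a gene pass the limma test over all probes. Their medians, from 0.03 to 0.12 apart from 1 carrier, lay nearer to the -0.01 of all genes than the 0.63 of the 6 binding proteins counted the same way.

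Of 8 measured genes among 9 ligands, receptors and H19, the noncoding RNA next to Igf2, 4 were higher and 4 lower in KO, or 6 and 2 with a normexp background. The unadjusted limma p was under 0.05 for 3 higher and 1 lower. The ligands differed in opposite directions. Igf2 read 1.69, 1.77 and 1.57 in WT and 2.99, 3.06 and 2.89 in KO. KO was 2.46-fold above WT with no overlap, a difference of 1.30 ± 0.13 (SE, limma adjusted p = 0.0618). Igf1 read 3.18, 2.72 and 3.30 in WT and 1.27, 1.54 and 1.87 in KO. All WT samples were higher, with a difference of -1.51 ± 0.23 (SE, limma adjusted p = 0.112), and its 4 other tested probes were lower in KO too. Igf2 passed the threshold under 6 of the 22 alternatives and Igf1 under 5, among them normexp, the authors' deposited table and the 3 fits of all 9 arrays. H19 was higher in KO by 0.47 ± 0.14 (SE, limma adjusted p = 0.320). The receptor Igf1r averaged 0.96 ± 0.30 in the WT samples and 1.43 ± 0.03 in the KO samples (SD, n = 3 each, limma adjusted p = 0.430). Igf2r differed by -0.17 (95% interval -0.53 to 0.20). Of the 3 carriers outside the 6 members, Igfals, the acid-labile subunit, differed by -0.06 near background, and Igfbp1 and Igfbpl1 were not above background on enough arrays.

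Of 16 measured proteases of binding proteins and their inhibitors, 10 were higher and 6 lower in KO. The median was 0.12, and the unadjusted limma p was under 0.05 for 4 higher and 1 lower. Among the 4 is Adam28, which passed the filter through KO arrays alone. Prss23, a secreted serine protease, read 0.54, 0.62 and 0.90 in WT and 1.52, 1.46 and 1.41 in KO, with no overlap (difference 0.78 ± 0.14 SE, limma adjusted p = 0.148). C1s1, a complement protease known to cleave Igfbp5, was higher by 0.82 ± 0.22 (SE, limma adjusted p = 0.283). Adam28, a metalloprotease, was well above background on 0 of 3 WT and 3 of 6 KO arrays (limma adjusted p = 0.354). Signals this dim set no useful lower bound on its fold of KO over WT. The difference was 2.00, but 0.39 with a normexp background and 0.48 in the authors' deposited table. Pappa, the protease of Igfbp4, differed by 0.23 (95% interval -0.18 to 0.64), and its inhibitor Stc2 by 0.11 (-0.70 to 0.91). The metalloprotease Adam12, which cleaves Igfbp3 and Igfbp5, was lower in KO by -0.73 ± 0.28 (SE, limma adjusted p = 0.430). Its groups nearly touched, with the lowest WT sample at 0.148 and the highest KO sample at 0.143.

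Of 11 measured proteins that share the N-terminal domain of the binding proteins but are not counted among them, 6 were higher and 5 lower in KO. The unadjusted limma p was under 0.05 for 4 higher and 1 lower, and the median was 0.11. Ccn2, the connective tissue growth factor, read -1.78, -0.78 and -1.12 in WT and 1.31, 1.19 and 1.90 in KO. Its difference of 2.69 ± 0.32 (SE, limma adjusted p = 0.083) was the largest of any gene in these lists of the Igf system, and it passed the threshold under 5 of the 22 alternatives. Ccn5, of the same family, was higher by 0.92 ± 0.19 (SE, limma adjusted p = 0.190), and Crim1, a transmembrane protein, lower by -0.86 ± 0.23 (SE, limma adjusted p = 0.277). Ccn1 averaged 3.64 ± 0.17 in the WT samples and 3.75 ± 0.36 in the KO samples (SD, n = 3 each).

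Of 27 receptor adaptors and kinases, 16 were higher and 11 lower in KO, but 11 higher and 16 lower with arrays scaled to their median. The median difference was 0.03. The unadjusted limma p was under 0.05 for 3, all higher, among them Grb14, which passed the filter through KO arrays alone. Grb14, an adaptor that inhibits the insulin receptor, was above background on 0 of 3 WT and 3 of 6 KO arrays. Its difference of 2.21 (limma adjusted p = 0.0964) is therefore uncertain in size. It was 0.18 with a normexp background (limma adjusted p = 0.767) and 0.22 in the authors' deposited table (limma adjusted p = 0.546). Foxo3, a transcription factor that Akt holds out of the nucleus, was higher by 0.48 ± 0.12 (SE, limma adjusted p = 0.249), and Irs2, a docking protein of the receptors, by 0.42 ± 0.15 (SE, limma adjusted p = 0.403). Akt1 and Akt2 differed by -0.08 (95% interval -0.43 to 0.26) and -0.04 (-0.36 to 0.28).

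**Figure D4:**
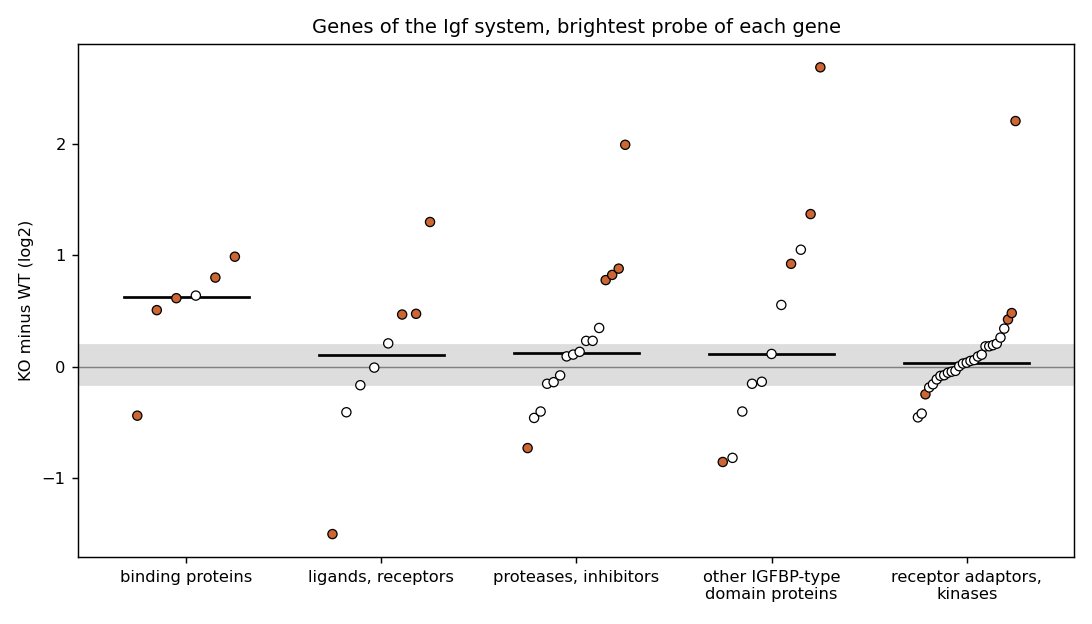
Difference between KO and WT (vertical axis, log2) of each measured gene in 5 lists of the Igf system, 1 point a gene, with the list's median as a bar. Filled points are genes whose WT and KO samples do not overlap, and the grey band holds the middle of all 16784 genes (-0.17 to 0.20, from the lower to the upper quartile). The binding proteins have 5 filled points of 6, Igf1 is the lowest point of its list at -1.51, and Ccn2 the highest of all at 2.69.

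The members did not share 1 pattern over samples. As a description over 6 samples, which share the difference between groups, Igfbp6 and Igfbp7 had a Pearson r of 0.93, Igfbp4 and Igfbp6 of -0.96 and the 2 Igfbp2 probes of 0.85, while Igfbp3 and Igfbp6 had 0.32. Among 4782 probes with an SD of at least 0.5 over the samples, those most like each member were also noted. Nearest to Igfbp7 were Gja1, the gap junction protein connexin 43 (0.998), Sorbs2 (0.995) and Serpina3n (0.993). Nearest to Igfbp5 were Serpinb1c (0.998), the matrix protein Thbs2 (0.996) and Srpx2 (0.990). Nearest to the coding-end probe of Igfbp2 was Cdkn1a, which encodes the cell cycle inhibitor p21 (0.994), then Kcna1 (0.986) and Ampd3 (0.984). Igfbp6 was most like Ripor2 (0.995), Gm5092 and Ang4 (both 0.993), Igfbp4 most like Ropn1l (0.999), Hebp2 (0.982) and Plek2 (0.967), and Igfbp3 most like Arfgef3 (0.988), Rgn (0.977) and Mansc1 (0.973). These correlations over 6 samples were not tested.

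Neighbouring genes were also measured, in a window of 100 kb on each side of the probe in mm9 that was chosen after values were seen. Over all tested probes, KO lay wholly above WT for 8.58% and wholly below for 7.93%. Around Igfbp6, KO lay wholly above WT for 2 of 31 other tested probes, and the median difference was -0.04. Around Igfbp7 this held for 0 of 4, with 1 wholly below, and around Igfbp4 for 1 of 6, with 1 wholly below. The 2 other tested probes near Igfbp2 and Igfbp5 had a median of 0.01, and the 2 near Igfbp3 a median of -1.01, with overlapping groups. None of these neighbours passed the limma test.

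The promoters of the members differ in sequence. RefSeq gave 7 starts for the 6 genes in GRCm38.p6, a build other than that of the probes. The 250 bases before the start are shown for the members that were higher in KO with the smallest p, Igfbp6 and Igfbp7, for the first start of Igfbp2, and for Igfbp4, the member that was lower. Each CG dinucleotide, the site of DNA methylation, is in capitals, and all are written 5′ to 3′ on the strand of the gene. They lie at chr15:102143936-102144185 (plus, Igfbp6), chr5:77408046-77408295 (minus, Igfbp7), chr1:72824230-72824479 (plus, Igfbp2) and chr11:99040994-99041243 (plus, Igfbp4).

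Igfbp6: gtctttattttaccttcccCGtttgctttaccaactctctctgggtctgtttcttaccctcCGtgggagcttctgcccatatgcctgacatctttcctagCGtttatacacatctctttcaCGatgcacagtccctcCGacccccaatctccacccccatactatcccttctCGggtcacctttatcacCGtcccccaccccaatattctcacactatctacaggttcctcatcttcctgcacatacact
Igfbp7: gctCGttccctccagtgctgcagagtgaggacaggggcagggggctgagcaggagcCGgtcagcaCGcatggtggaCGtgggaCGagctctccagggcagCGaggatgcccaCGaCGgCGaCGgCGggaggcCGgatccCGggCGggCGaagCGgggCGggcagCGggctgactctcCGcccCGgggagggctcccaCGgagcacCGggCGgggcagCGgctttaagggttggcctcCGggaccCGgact
Igfbp2: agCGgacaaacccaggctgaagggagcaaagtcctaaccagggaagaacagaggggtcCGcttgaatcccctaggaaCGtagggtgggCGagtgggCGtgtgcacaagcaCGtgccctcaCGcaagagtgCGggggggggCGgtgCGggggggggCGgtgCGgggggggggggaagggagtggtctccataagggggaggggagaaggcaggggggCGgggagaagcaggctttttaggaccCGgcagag
Igfbp4: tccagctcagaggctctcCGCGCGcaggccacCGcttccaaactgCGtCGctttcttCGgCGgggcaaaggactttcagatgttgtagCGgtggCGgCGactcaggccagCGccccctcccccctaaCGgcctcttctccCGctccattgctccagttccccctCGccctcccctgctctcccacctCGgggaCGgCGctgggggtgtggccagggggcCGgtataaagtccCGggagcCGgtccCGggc

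The Igfbp6 window holds 7 CG, near the median of 6 over all 32851 promoters in the table, and 46.3% of promoters have as many or more. The Igfbp7 window holds 26 (9.59% have as many or more), the first Igfbp2 window 14 (29.4%) and the Igfbp4 window 22 (14.8%). Of those not shown, Igfbp3 holds 32 (4.58%), Igfbp5 10 (37.8%) and the second Igfbp2 start 11 (35.6%). The 2 members with the smallest p thus lie at 7 and 26 CG, and the member lower in KO between them. The letters TATAAA, searched on both strands, are in the Igfbp4 and Igfbp6 windows and in 12.4% of all promoters. CACGTG, the same on both strands, is in the first Igfbp2 window and in 6.02% of all promoters. Neither overlaps the other, and no binding or methylation was measured here.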

How the data were processed

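The authors deposited 9 arrays of Agilent scanner output (Agilent Feature Extraction 10.7.3.1), whose processed intensity is, per the file headers, linear and background-subtracted. They also deposited a table of log2 values, made by a method not given in the sources used here. Its columns share a median of 7.806 and matched a normexp correction with quantile normalisation (r of 0.999976), so its scale is known from that match only. That correction, also used in the normexp alternative, was run with an offset of 50 added to each signal. Such an offset makes differences between dim signals smaller. The normexp alternative and the deposited table are therefore not independent checks of a dim probe. The RNA amplification can distort levels, and which strand the labelling kept was not stated.

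Here log2 of the processed signal minus each array's 75th percentile was used. Outlier spots (93 to 148 an array) were left out, which left 35 values to fill with the probe's mean, and a probe had to be well above background on 3 or more of the 9 arrays (42997 probes). KO outnumbers WT arrays, so genes seen in KO alone pass more easily. WT and KO were compared with limma 3.58.1 (lmFit, eBayes, R 4.3.3), 3 samples against 3, with 4 residual and 1.99 prior degrees of freedom and Benjamini-Hochberg adjustment over all kept probes at 0.05. Single values had an exact two-sided permutation test. The labels call the arrays biological replicates without naming animals, so p-values measure the spread between these samples. Same-numbered WT and KO samples did not deviate together (r of -0.03, 0.02 and 0.02). The fit was tested on simulated data.

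The members and the 14 gene lists were chosen with earlier results of these data known. The sequence of the Igfbp7 probe is not reported here. Every member probe is named, and in each list of the Igf system the genes that pass or otherwise the 3 with the smallest p. Other genes (such as Igf1r, Igf2r, Pappa, Stc2, Adam12, Ccn1, Akt1 and markers) were named for their role after their values were seen. For likeness, the 3 genes with the highest r with each member are named. Probe names were updated through RefSeq (GRCm38), and 26982 probes kept the name in the files. Of other genes the brightest probe was used. There were 22 alternatives; scalings of the marker sums and list counts were added after seeing the data.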

Additional observations from a re-analysis of the deposited data

How the results depend on the processing

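In each of the 22 alternatives that gave a value, the 6 member probes above WT stayed above and Igfbp4 stayed below. Igfbp7 ran from 0.82 to 1.11, Igfbp6 from 0.72 to 0.91, Igfbp5 from 0.28 to 0.64, Igfbp4 from -0.63 to -0.35, the Igfbp2 coding-end probe from 0.42 to 0.80, its other probe from 0.62 to 1.79 and Igfbp3 from 0.025 to 1.04. On slide 2 alone, with 1 WT array and no test, Igfbp3 was 0.025 and Igfbp4 -0.63. The number of member probes called was 0, but 4 with the 9 arrays as separate samples (Igfbp2 A_66_P135391 1.49, Igfbp4 -0.44, Igfbp6 0.80 and Igfbp7 0.99), and 1 when arrays were grouped by sample as a random block (Igfbp6, 0.80). Those fits take degrees of freedom from repeat arrays of 1 sample. The number of all probes called was 21, and 279 with normexp, 208 in the authors' deposited table, 61 when probes had to be above background on all arrays of a group, 1639 with 9 separate arrays, 610 with the random block and 364 with that block and slide as a fixed block. It was 1 with slide as a block and 0 with slide 1 only (limma, 4333 at an unadjusted p under 0.05). With the replicate block it was 0 (limma, 4360 at an unadjusted p under 0.05), and 0 members were called. The numbers do not pair the samples. Leaving out 1 sample gave 0 to 3: 0 without any WT sample or KO sample 2, 3 without KO sample 1 and 2 without KO sample 3. With 3 samples a group and 1 probe for most members, the number of arrays limits the precision, and the second Igfbp2 probe is limited by its signal near background.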
